A study of Salix matsudana with 3 samples.

Results

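The miR398 family of Salix matsudana, the Chinese willow, was taken as every small RNA entry whose name carries miR398 or MIR398 as its family, and as every degradome record of such an entry. The rule found 8 of the 205 small RNA entries and 3 of the 981 degradome pairs, each of which joins an entry to a cut position in a messenger. All plants were 30 days old, and RNA came from roots and stems together. The salt group spent 2 days in a salt solution of 100 mmol per litre NaCl, and the untreated group received none, with 1 small RNA library for each. A single degradome library, in which the 5′ ends of cut messenger RNAs are sequenced, was made from RNA of salt and untreated plants mixed. With 1 library a group, no test between the groups could be made, and no difference below is backed by replicates. The labels list no untreated plants at 2 days, so salt and elapsed time cannot be told apart.

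Plants hold copper in a few abundant proteins, among them plastocyanin of photosynthesis and the copper/zinc superoxide dismutases. When copper runs short, the transcription factor SPL7 of Arabidopsis raises a set of miRNAs that cut messengers of dispensable copper proteins, which leaves copper for plastocyanin. In Arabidopsis, miR398 acts on the superoxide dismutases CSD1 and CSD2, on their copper chaperone CCS and on the cytochrome c oxidase subunit COX5b. The mature miRNA comes from the 3p arm of its hairpin, and the 5p strand is the passenger that is mostly discarded.

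The entries fell into a 3p arm of 5 and a 5p arm of 3. The 3p sequences are shown because they carry nearly all reads and the degradome result, with the seed (bases 2 to 8) in capitals.
ptc-miR398b: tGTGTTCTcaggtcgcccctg
ptc-miR398b_R+1: tGTGTTCTcaggtcgcccctgt
nta-miR398_R+2: tGTGTTCTcaggtcgcccctgtt
ptc-miR398b_R+2: tGTGTTCTcaggtcgcccctgaa
stu-miR398a-3p_1ss15GA: tATGTTCTcaggtcacccctg
The first 4 share 1 seed, which no other entry in the table carries, and differ only at the 3′ end, by an added t, tt or aa. The stu entry differs from ptc-miR398b by G2A and G15A (the base of ptc-miR398b, its position from 1 at the 5′ end, then the base of the other entry), so its seed is another one. The 5p entries follow, with bases 2 to 8 in capitals again.
ppe-miR398a-5p_2ss11GC12GA: gGAGCGACctcagatcacatg
ptc-miR398c-5p_1ss8CT: gGAGCGATctgaaatcacatg
ptc-MIR398c-p5: aGGATTCCtacaggagcgacc
The ptc-miR398c-5p sequence shared 18 of 21 bases with ppe-miR398a-5p and differed by C8T, C11G and G13A, of which C8T lies in the seed.

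Hairpins were deposited for 4 of the 8 entries, at positions 54 to 167 and 61 to 157 of contig c16577_f1p0_1955_1_2kb. The file names no genome build, and the contig has no gene annotation there. The shorter hairpin of 97 bases lies wholly inside the longer one of 114 bases, so both records describe 1 locus. The longer one is shown with the 5p and 3p entries in capitals, because it places both strands.
miR398 hairpin: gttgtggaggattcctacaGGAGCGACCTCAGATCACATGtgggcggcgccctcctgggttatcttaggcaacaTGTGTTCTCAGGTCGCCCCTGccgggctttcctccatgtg
The 5p entry ppe-miR398a-5p occupied bases 20 to 40 and ptc-miR398b bases 75 to 95 of this hairpin, with 34 bases between them. In the structure predicted by RNAfold, at -59.1 kcal per mol, 16 of the 21 bases of each paired with the other. Both strands of this duplex ended in a 3′ overhang of 2 bases, the form that Dicer enzymes are known to leave. The entry ptc-MIR398c-p5 occupied bases 8 to 28, overlapped ppe-miR398a-5p by 9 bases, and paired with ptc-miR398b at 10 bases.

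**Figure D1:**
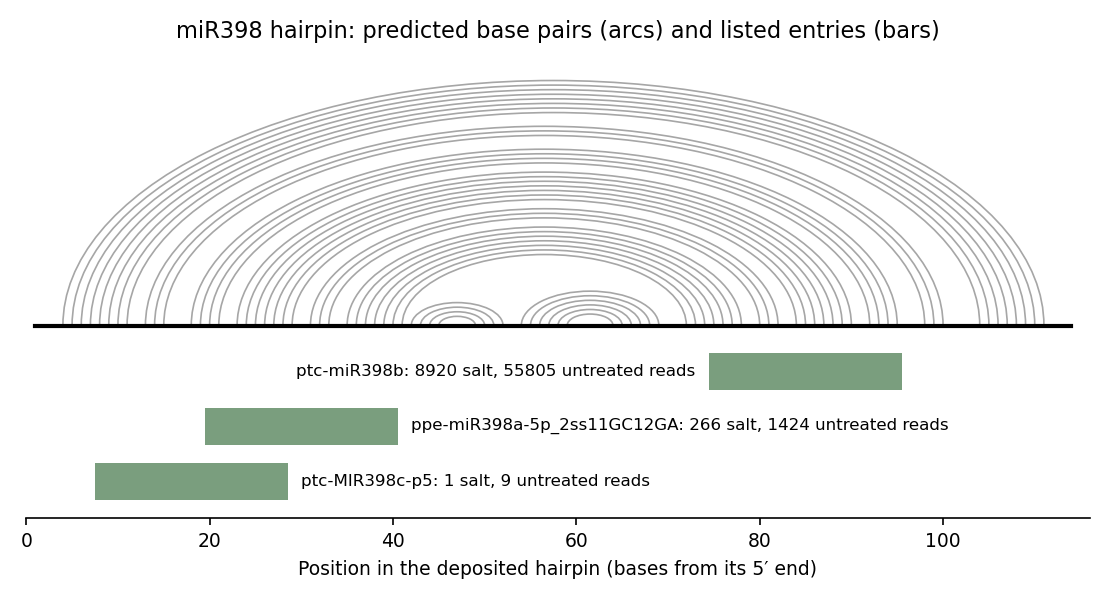
Position in the deposited miR398 hairpin (bases from its 5′ end, horizontal) of the 3 entries found in it without mismatch, drawn as bars with their reads in each library; arcs join bases paired in the RNAfold structure. The 5p bar at bases 20 to 40 faces the 3p bar at bases 75 to 95, and ptc-MIR398c-p5 starts 12 bases upstream of the 5p bar.

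The added 3′ bases did not match this hairpin. The hairpin continues with cc after ptc-miR398b, so ptc-miR398b_R+1 differed from it by C22T, nta-miR398_R+2 by C22T and C23T, and ptc-miR398b_R+2 by C22A and C23A (the base of the hairpin, the position in the entry from 1 at its 5′ end, then the base of the entry). The table nevertheless places ptc-miR398b_R+1 on this hairpin. Another locus with a different base there could not be looked for, because no genome was used here.

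The family as a whole held almost the same share of listed reads in both libraries. It had 9473 reads, or 1.29% (95% exact Clopper-Pearson interval 1.26 to 1.32), in the salt library, and 59225 reads, or 1.28% (1.27 to 1.29), in the untreated library. Levels are reads per 1000000 reads of all 205 entries (RPM), a total of 734026 in the salt library and 4622984 in the untreated library. The summed level was 12906 RPM in the salt library and 12811 RPM in the untreated library, a ratio of 1.01 (95% exact conditional binomial interval 0.986 to 1.03). Among 76 numbered families it ranked 10th by reads in the salt library and 9th in the untreated library. All intervals cover counting error only, because there is 1 library a group. PCR copies of 1 molecule are counted as separate reads, so the intervals may be too narrow even for counting error. In this bulk RNA, the number of cells that make miR398 and the level of miR398 per cell cannot be told apart.

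The level followed 1 sequence. The 3p entry ptc-miR398b stood at 12152 RPM in the salt library and 12071 RPM in the untreated library, from 8920 salt reads and 55805 untreated reads, a ratio of 1.01 (0.984 to 1.03). It was the 14th most abundant entry in the salt library and the 10th in the untreated library. It took 94.2% of the family's reads in both libraries, with intervals of 93.7 to 94.6 in the salt library and 94.03 to 94.4 in the untreated library. The library totals set this ratio: on the log2 scale it was 0.01 here, and over 6 scalings it ranged from -0.97 to 0.23. The median entry of the table moved with it, from -0.63 to 0.55 over the same scalings, and ptc-miR398b lay 0.32 log2 below that median with the listed total.

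Of the 8 entries, 5 reached a mean level of 10 RPM, and 0 of these 5 lay past 2-fold in either direction. Over all families, 45.2% of 115 entries at this level did, with 32.2% higher and 13.0% lower in the salt library. The median log2 ratio of level + 1, salt over untreated, was 0.23 over the 5 miR398 entries and 0.33 over all 115. The count of 5 is small, and the miR398 entries share a locus or a sequence, so they are not separate observations. With 3 of the other scalings ptc-miR398b_R+1 passed 2-fold lower.

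**Figure D2:**
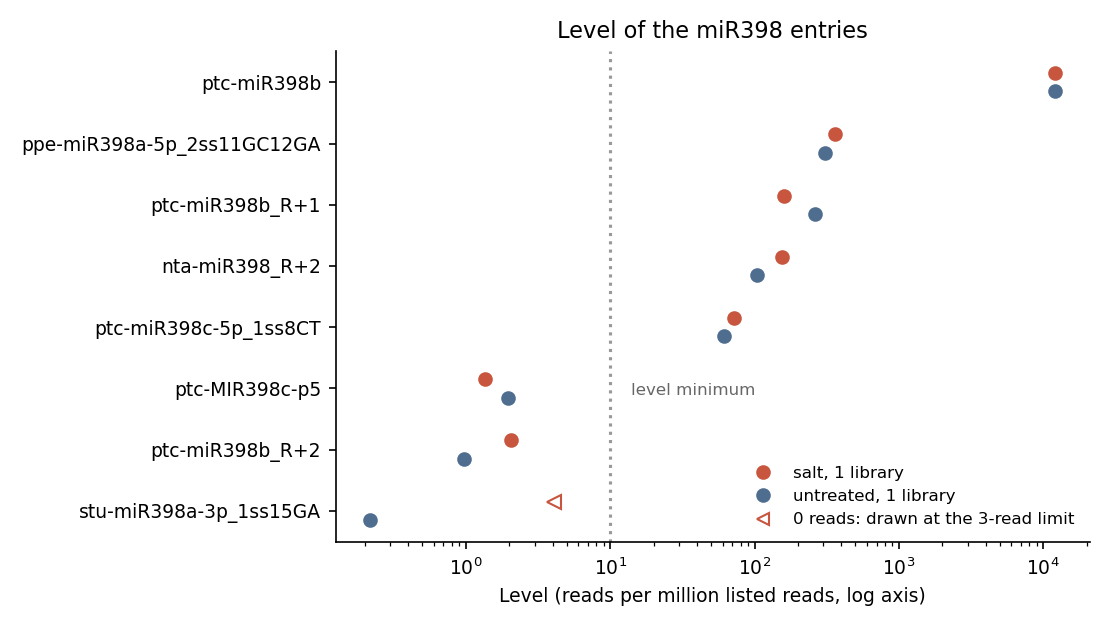
Level of the 8 miR398 entries (RPM, log axis) in the salt library and the untreated library, 1 point a library and no error bar because there are no replicates; the open triangle marks a count of 0 at the limit of 3 reads. The entry ptc-miR398b lies at 12152 RPM in the salt library and 12071 RPM in the untreated library, 4 entries lie between 61.4 and 362 RPM, and 3 lie below the level minimum of 10 RPM.

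The passenger strands were less abundant by more than an order of magnitude. On the 5p arm, ppe-miR398a-5p stood at 362 RPM in the salt library and 308 RPM in the untreated library, from 266 salt reads and 1424 untreated reads. Its ratio was 1.18 (1.03 to 1.34), or 0.23 log2, a direction that turned under 3 of the 5 other scalings (-0.74, -0.15 and -0.10 log2). There were 33.5 reads of ptc-miR398b for each of its reads in the salt library and 39.2 in the untreated library. This strand ratio does not depend on the library totals, and the passenger was 1.17-fold higher relative to ptc-miR398b in the salt library (exact conditional interval 1.02 to 1.34). The interval of counting error comes close to 1, and without a second library the spread between plants is unknown. Reads of ptc-miR398b from any other locus would be pooled in the strand ratio, and no genome was used to look for such a locus.

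The related passenger ptc-miR398c-5p had 53 reads (72.2 RPM) in the salt library and 284 reads (61.4 RPM) in the untreated library, a ratio of 1.18 (0.859 to 1.58), whose direction turned under the same 3 scalings. It stood in the same proportion to ppe-miR398a-5p in both libraries, at 19.9% of its reads in each (ratio of proportions 0.999, interval 0.710 to 1.39). Its sequence is not in the deposited hairpin, and the table gives no coordinates for it. The 5p arm as a whole took 3.38% (3.02 to 3.76) of family reads in the salt library and 2.90% (2.77 to 3.04) in the untreated library.

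The 3p forms with added bases differed between the libraries in opposite directions. The form with 1 added t, ptc-miR398b_R+1, had 118 reads (161 RPM) in the salt library and 1219 reads (264 RPM) in the untreated library. Relative to ptc-miR398b that is 1.32 reads per 100 in the salt library and 2.18 per 100 in the untreated library, 1.65-fold lower in the salt library (exact conditional interval 1.36 to 2.01). The form with tt, nta-miR398_R+2, had 113.5 estimated reads (155 RPM) in the salt library and 478.5 (104 RPM) in the untreated library. It stood at 1.27 per 100 reads of ptc-miR398b in the salt library and 0.857 per 100 in the untreated library, 1.48-fold higher in the salt library (1.20 to 1.83).

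Set against each other, there were 96.2 tt reads for every 100 single-t reads in the salt library and 39.3 in the untreated library, a ratio of 2.45 (1.84 to 3.28). These comparisons within the family do not depend on the library totals. By share of family reads, the single-t form took 1.25% (1.03 to 1.49) in the salt library and 2.06% (1.95 to 2.18) in the untreated library. The tt form took 1.20% (0.994 to 1.44) in the salt library and 0.808% (0.738 to 0.884) in the untreated library. The order of these forms was therefore clear in the untreated library, whereas in the salt library their intervals overlapped. The 3 forms with added bases together took 2.46% (2.16 to 2.79) of family reads in the salt library and 2.87% (2.74 to 3.01) in the untreated library. The intervals of the single-t and of the tt form relative to ptc-miR398b exclude a ratio of 1, but PCR copies may make them too narrow. The spread between plants is unknown for these forms too.

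**Figure D3:**
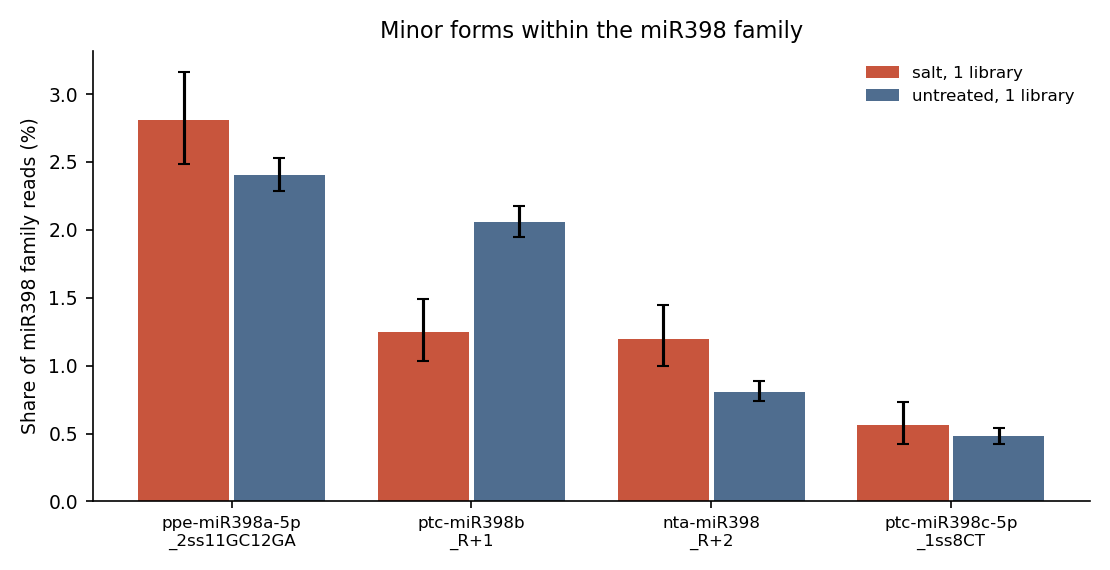
Share of miR398 family reads (%) of the 4 minor entries at the level minimum, with the salt library left and the untreated library right in each pair; bars are single libraries and error bars are 95% Clopper-Pearson intervals of counting error. The single-t form ptc-miR398b_R+1 is at 1.25% in the salt library and 2.06% in the untreated library, while the tt form nta-miR398_R+2 is at 1.20% in the salt library and 0.808% in the untreated library.

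The remaining 3 entries lay below the level minimum. The entry ptc-MIR398c-p5 had 1 read in the salt library and 9 reads in the untreated library, and ptc-miR398b_R+2 had 1.5 estimated reads in the salt library and 4.5 in the untreated library. The entry stu-miR398a-3p had 0 reads in the salt library and 1 read in the untreated library. A count of 0 in the salt library allows up to 3 reads, or 4.09 RPM, which is above the level of the stu entry in the untreated library (0.216 RPM). No difference was detectable at this depth for any of these 3.

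Other miRNAs known to respond to copper supply in plants are miR397, which acts on laccases, miR408, which acts on plantacyanin and other copper proteins, miR857, which acts on a laccase in Arabidopsis, miR528 of grasses, and miR1444 of poplars, which acts on polyphenol oxidases. The list of these families with miR398 held 17 entries, of which 12 reached the level minimum, and 0 entries belonged to miR528 or miR857. Of the 12, 1 was past 2-fold higher, 1 was past 2-fold lower and 10 were neither, beside 32.2% higher and 13.0% lower over all 115 entries. The list had a median log2 ratio of 0.23, beside 0.33 over all 115. Outside miR398 the list held 7 entries at the level minimum, with a median of 0.46. A pair of these, mes-miR408_L-1R+2 and aly-miR408-3p_L-1R+2, is 1 sequence with the same counts, and counted once it left 6 entries with a median of 0.32.

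The main strands of 3 copper families stood close to each other in ratio. Beside 1.01 for ptc-miR398b, the ratio was 1.12 (1.09 to 1.16) for ptc-miR408-3p_L-1R+1, at 6888 RPM in the salt library and 6136 RPM in the untreated library. For ptc-miR1444a_R+1 it was 1.08 (1.04 to 1.13), at 3621 RPM in the salt library and 3351 RPM in the untreated library. The laccase regulator nta-miR397_L+2 departed from them, at 797 RPM in the salt library and 3013 RPM in the untreated library, 3.78-fold lower (3.48 to 4.11). The entry past 2-fold higher was the minor form mdm-miR408a_L-1R+3, at 75.8 RPM in the salt library and 17.9 RPM in the untreated library, 4.23-fold higher (2.97 to 6.04).

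Outside the family, the entries with the log2 ratio nearest to that of ptc-miR398b were ptc-MIR319a-p5 (-0.00 log2, a distance of 0.011), ptc-miR6427-5p (0.03, a distance of 0.024) and ptc-miR396e-3p (-0.07, a distance of 0.075). This likeness rests on 2 libraries and says only that these entries kept a similar share of reads.

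**Figure D4:**
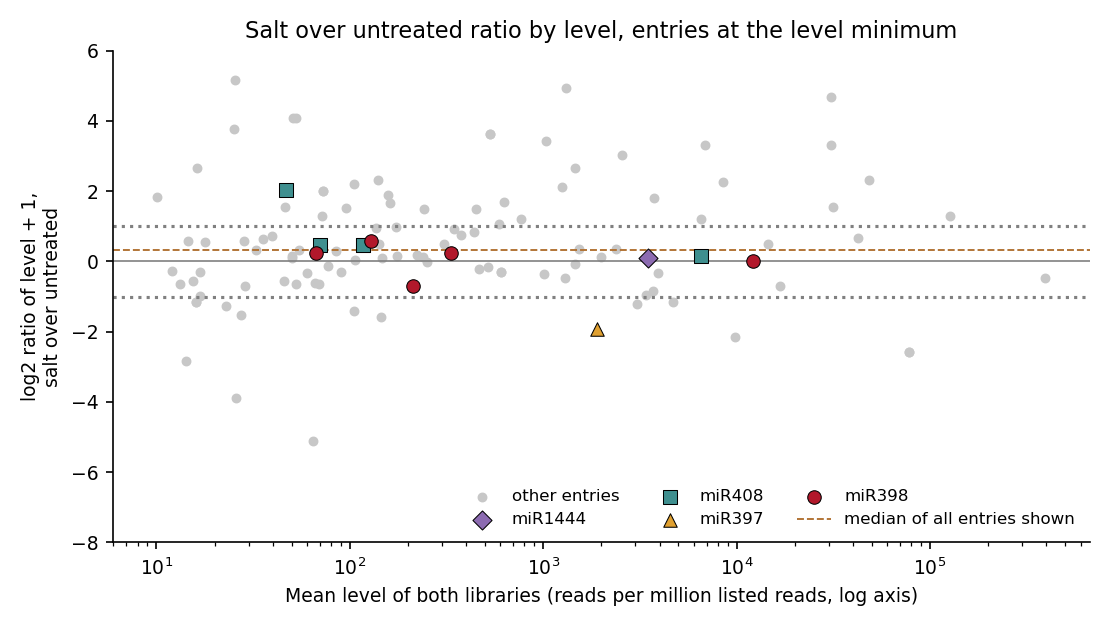
log2 ratio of level + 1, salt over untreated, against the mean level of both libraries (RPM, log axis) for the 115 entries at the level minimum; dotted lines mark 2-fold and the dashed line the median of all entries, 0.33. The 5 miR398 entries lie between -0.71 and 0.57, inside the dotted lines, while nta-miR397 lies at -1.92 and mdm-miR408a at 2.02.

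In the degradome, miR398 had 1 cleavage site. It lay at position 21 of a transcript with the deposited symbol LAC9, a laccase, one of the copper oxidases known to polymerise lignin precursors in the cell wall. The site held 78 reads in the mixed library, and since both conditions were pooled it says nothing of salt. It was listed 3 times, for ptc-miR398b and for the forms with added t and tt shown above, always with the same position and reads. The symbol is the authors' deposited one, with no transcript identifier or sequence, so the gene cannot be checked here against other laccases.

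The alignments of the 3 forms differed as their 3′ ends do. All 3 ended at target position 31 and began at position 10 for ptc-miR398b, 9 for ptc-miR398b_R+1 and 8 for nta-miR398_R+2. The alignment score was 3 for ptc-miR398b and 3.5 for both longer forms, on the deposited scale that ran from 0 to 4. The file does not spell out the direction of that scale, on which, in the usual scoring of plant miRNA targets, a lower value is a closer match. Scores of at most 2.5 were held by 285 of the 981 pairs, so miR398 was not among them.

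Each of the 3 alignments was 1 base longer on the target than the miRNA, a feature of 78 of 981 pairs (7.95%), and the cleavage position lay 10 bases before the end of the alignment. In all 720 pairs whose alignment was as long as the miRNA, that distance was 9, and in 54 of the 78 longer alignments it was 10. The site also lay close to the start of the transcript as deposited. Besides the 3 miR398 records, 1 other pair in the table had a cleavage position at or below 21, and the median position was 1198.

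The LAC9 site was among the better covered ones. Of 653 distinct combinations of symbol and position, 53 had more reads, and by its highest site LAC9 ranked 18th of 190 symbols. Records without a symbol were told apart by position alone. Equal reads at several positions of a symbol, such as 1137 in AFB2, may be the same reads listed on several transcripts. The 653 and the 53 are therefore not counts of separate cuts. The median over all pairs was 6 reads, and 243 pairs (24.8%) rested on 1 read. The deposited signal headed TPB came to 52.7 per read at this site, the largest value in the table, which 71 pairs (7.24%) shared. Across the table the signal per read was that value divided by a whole number (within 0.001) in 80.5% of pairs. Among the pairs at the undivided value, no site of another family had more than 56 reads. The header does not say what the divisor stands for.

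None of the 981 pairs analysed carried a symbol of the targets known from Arabidopsis, namely the copper/zinc superoxide dismutases, the chaperone CCS or the oxidase subunit COX5b. In 94 pairs no symbol was given, but none of these belonged to miR398. A count of 0 in this list does not show that those messengers were not cut, because the list holds called sites alone and its calling rules are not given in the sources used here.

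**Figure D5:**
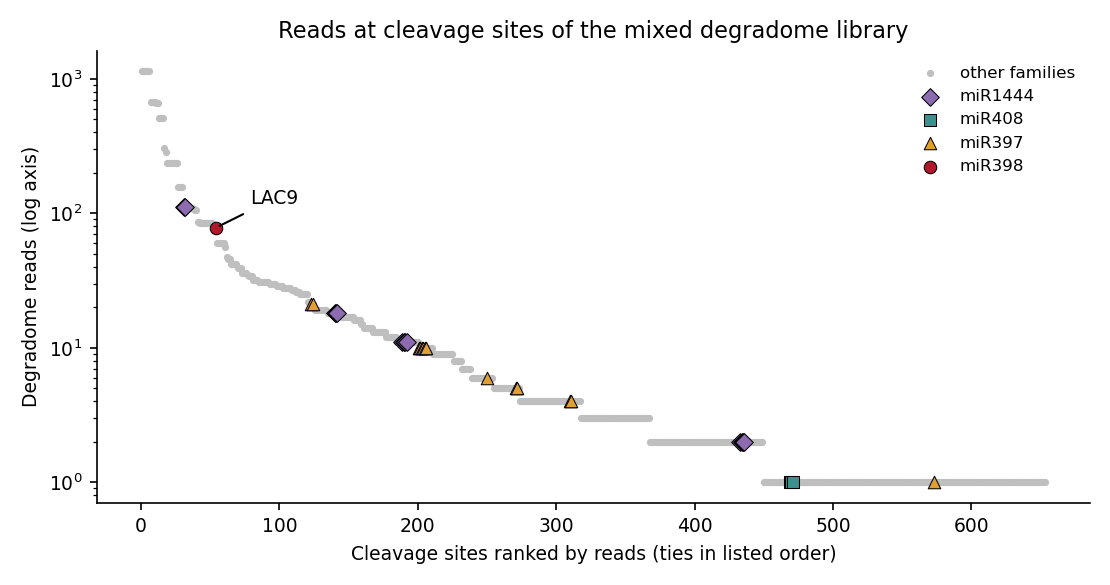
Degradome reads (log axis) at the 653 combinations of symbol and position of the mixed library, ranked from most to fewest reads, with those of the copper families marked. Some of them may repeat the same reads. The LAC9 site of miR398 has 78 reads, the highest miR397 site has 21, the highest miR1444 site has 111, and all miR408 sites have 1.

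The other copper families gave a different set of records. Laccase symbols appeared in 18 pairs, of which 15 belonged to nta-miR397 and 3 to miR398. The 6 laccase symbols of miR397 (LAC2, LAC5, LAC10, LAC16, LAC17 and IRX12, the name of a lignin laccase in Arabidopsis) did not include LAC9, and 0 pairs of another family named LAC9. The miR397 sites with most reads were those in LAC5, at positions 764 and 766 with 21 reads each. Records with 10 reads each followed in LAC2, at positions 358, 561, 793, 805 and 1421, and in LAC16, at position 727. The deposited signal per read was the largest one divided by 2 in each LAC5 record and by 5 in each LAC2 record. Equal reads at several positions of a symbol may be the same reads listed on several transcripts. These positions cannot be taken as separately supported sites. Reads at a site depend on how abundant the messenger is, so these counts do not rank the miRNAs.

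The miR408 entries were paired with PAA2, a copper-transporting ATPase of chloroplasts in Arabidopsis, at positions 2253, 2761 and 3371 with 1 read each. The signal per read at each was the largest one divided by 4, so these may be 1 read listed on several transcripts. The sites of ptc-miR1444a with most reads, 111 at positions 1090 and 1101, carried no symbol, and the score there was 3.5. The signal per read there was the largest one divided by 3, so these too may be the same reads. The best score of ptc-miR1444a was 1.5, with up to 18 reads, again at sites with no symbol.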

How the data were processed

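The members and lists were chosen with earlier results of these data known. Libraries were grouped by the labels, and the columns marked 0d and 2d were matched to the sample titles. The authors deposited estimated counts per mature sequence (expected counts, raw per the file headers). Of 205 entries, 68 held parts of reads, among them 2 of miR398. They also deposited raw degradome read counts, an alignment score and a signal headed TPB, per the file headers. Trimming, mapping and calling tools are not given in the sources used here.

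Levels were counts divided by the listed total, which is not the full library depth, times 1000000. One read was worth 1.36 RPM in the salt library and 0.216 RPM in the untreated library. Ratios were log2 of level + 1 and were called past 2-fold at a mean level of at least 10 RPM. Ratios and shares used the counts as deposited, and their intervals used counts rounded to whole numbers. The calculation was tested on simulated libraries. Named items were all miR398 entries and sites, the entries of miR397, miR408, miR528, miR857 and miR1444 with at most 3 sites each (ties with the last were added after their values were seen), and the 3 nearest ratios. Minor copper entries are given as counts. Software was Python 3.11.15, SciPy 1.17.1 and RNAfold 2.7.2.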

Additional observations from a re-analysis of the deposited data

How the results depend on the processing

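No paired analysis was possible because each condition has 1 library. The miR398 family ratio of 0.01 log2 was set by the scaling. It was -0.97 with the 5 most abundant entries left out of the totals, -0.37 with miR159 left out and -0.32 with the median ratio. It was -0.16 when identical sequences were counted once and 0.23 without miR2916, miR5139, miR5141, miR6300 and miR8175. The median of all entries shifted in these scalings by -0.96, -0.37, -0.32, -0.17 and 0.22. With each of the first 3, 1 miR398 entry (ptc-miR398b_R+1, at -1.69, -1.09 and -1.04) passed 2-fold lower. The same entry is on the copper list, which thereby had 2 entries past 2-fold lower in place of 1. Leaving the 5 most abundant entries out of the totals put nta-miR398_R+2 at -0.40, the opposite sign. The signs of ppe-miR398a-5p (-0.74, -0.15 and -0.10) and ptc-miR398c-5p (-0.74, -0.15 and -0.10) turned with all 3, and that of ptc-miR398b with these and with identical sequences counted once (-0.16). Over all entries, 23 were higher and 41 lower without the 5 most abundant (37 and 15 with the listed total), and without miR159 32 were higher and 24 lower. Entries past 2-fold lower numbered 34 of all 205 with no level minimum, beside 15 of 115 at 10 RPM. A minimum of 50 RPM, which fewer entries reached, gave 9 lower and left 0 copper entries higher. At 1.5-fold 25 entries were lower, 2 of them copper entries, and at 4-fold 20 were higher, 6 lower and 0 copper entries lower. An alignment score of at most 3 left 1 miR398 pair, a score of at most 2 left 0 pairs and 0 symbols, and counting each site once left 1. Pseudocounts of 0.1 and 5 and thinned untreated reads changed no count by over 1.5 times. Why these values moved was not tested beyond the construction of each setting. Low counts limited the 3 entries under 10 RPM, and the salt library, with 6.30-fold fewer listed reads, set the wider intervals.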

Other observations

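The added 3′ bases of miR398 were set beside those of other families after their values had been seen. The table held 8 pairs of a shorter entry and the same sequence with added 3′ bases in which both reached 10 RPM, 3 within miR398 and 5 in other families. For miR408, the form with added tt, mdm-miR408a_L-1R+3, stood at 1.10 reads per 100 of ptc-miR408-3p in the salt library and 0.292 per 100 in the untreated library, 3.77-fold higher in the salt library (exact conditional interval 2.64 to 5.38). The form of miR408 with added c, listed under 2 names with the same counts, stood at 1.99 per 100 in the salt library and 1.59 per 100 in the untreated library, a ratio of 1.25 (0.998 to 1.56). Both tt forms, of miR398 and of miR408, were thus higher relative to their shorter forms in the salt library. Single added bases had no common direction. In miR162, hpe-miR162a_R+1 with an added a was 1.90-fold lower (1.27 to 2.96) relative to ptc-miR162a. In miR172, nta-miR172d_R+1 with an added t was 1.14-fold lower (0.768 to 1.73) relative to aly-miR172a-3p, whereas the added c of miR408 had a ratio above 1. The intervals of the miR172 form and of the miR408 form with added c included 1. Each comparison rests on 1 library a group, and the intervals cover counting error only.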
